A study of Mus musculus with 48 samples.

Results

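Serotonin receptors were described across 4 parts of the mouse dopamine system. The members were the 10 receptor genes Htr1a, Htr1b, Htr1f, Htr2a, Htr2c, Htr3a, Htr4, Htr5b, Htr6 and Htr7, each taken from the deposited table as the row annotated with that symbol alone (where a gene has several such rows, the one with the highest mean). All 10 had exactly 1 such row, out of 22180 genes with a row of their own, and all 10 were among the 17274 genes tested.

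RNA came from male C57BL/6 mice kept in a cycle of 12 h of light and 12 h of darkness; no other treatment, genotype or age is given in the labels. The tissues were the habenula (HAB), striatum (STR), prefrontal cortex (PFC) and the ventral midbrain where dopamine neurons lie, that is, the ventral tegmental area together with the substantia nigra (SN/VTA). They were dissected at 6 Zeitgeber times (ZT), counted in hours from lights on: ZT3, ZT7 and ZT11 by day, and ZT15, ZT19 and ZT23 by night. Replicate 1 of each time fell in the first 24-h cycle of sampling and replicate 2 in the second, which gave 12 arrays a tissue and 48 in all. Each array carried RNA pooled from 3 mice of the same time, and errors and p-values here cover the spread among such pools.

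Serotonin acts in the brain through receptors of several families that differ in how they signal. Receptors of the Htr1 family couple to inhibitory G proteins that lower cyclic AMP and open potassium channels, those of the Htr2 family activate phospholipase C, and Htr4, Htr6 and Htr7 raise cyclic AMP. Htr3a encodes a subunit of an ion channel that serotonin opens directly. Raphe neurons send serotonin fibres to all of the tissues studied.

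Values are deposited log2 levels per probe set (1.09 to 13.65 over the table), and 1 unit is a 2-fold change. No detection limit was used, so a fold is between deposited levels. A probe set's level says nothing of another gene's amount, so levels are compared only within a gene. RNA of a whole tissue was measured, in which fewer cells of a type and less RNA per cell cannot be told apart.

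The labels were checked against marker genes, given as the mean log2 level of a list on each array. Midbrain dopamine markers lay between 9.58 and 9.95 in SN/VTA and at most at 7.39 elsewhere, striatal markers between 10.72 and 10.97 in STR and at most at 8.27 elsewhere, cortical markers between 9.35 and 9.59 in PFC and at most at 8.38 elsewhere, and habenula markers between 9.16 and 9.63 in HAB and at most at 7.26 elsewhere. The mean of 7 hippocampus markers was also highest in HAB (8.22 to 9.14, against at most 7.30 elsewhere), although Wfs1 of this list was higher in STR (11.26, against 9.68 in HAB) and the summed linear level of the list overlapped between HAB (2657 to 4853) and STR (2781 to 3346). Thalamus markers reached 9.68 in HAB and 9.44 in SN/VTA, against at most 7.29 in PFC and STR. Single genes departed from the mean of their list. Nr4a2 of the dopamine list was higher in HAB (9.53) than in SN/VTA (8.83), and Cux2 of the cortical list stood at 8.153 in SN/VTA and 8.115 in PFC.

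The 12 HAB arrays fell into separate clusters by choroid plexus markers, the genes of the tissue that secretes cerebrospinal fluid. In 7 arrays, all 6 of the first cycle and replicate 2 of ZT15, the mean of the 8 markers was 8.76 to 9.21 and their summed linear level 11550 to 13560. In the other 5 arrays, all of the second cycle, the mean was 6.94 to 7.27 and the sum 1971 to 2705. The 7 arrays were picked by their level of Ttr of this list (13.02 to 13.14). Its separation, and in part that of the mean and the sum, was thereby given. All 8 of 8 markers, Ttr included, were higher in every one of the 7 arrays than in any of the 5. On the 5 arrays some markers were low: Kcne2 ran from 4.92 to 5.47 and Slc4a5 from 5.44 to 5.76, where genes with a mean below 5.05 were not tested. Ttr ran from 10.14 to 10.76 there. Differences against HAB are therefore given with and without these 7 arrays. Without them HAB had no array at ZT15 and a single array at each other time. The spread among HAB arrays does not enter those fits, so only sizes are given for them.

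The first comparison asked how the receptors differ between the tissues. Of the 10 genes, 9 differed by at least 1 on the log2 scale in 1 or more of the 6 tissue pairs, and Htr1a in none. Htr5b was highest in HAB, Htr1b and Htr6 in STR, Htr2c and Htr7 in SN/VTA, and Htr3a in PFC. The median span between a receptor's highest and lowest tissue mean was 1.30, against 0.52 over all genes tested. Of all genes tested, 0.434% had a wider span than Htr5b, 0.643% a wider one than Htr1b and 1.92% a wider one than Htr4. Htr3a had the narrowest span of the 9 (1.06), and 14.53% of all genes tested had a wider one.

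**Figure D1:**
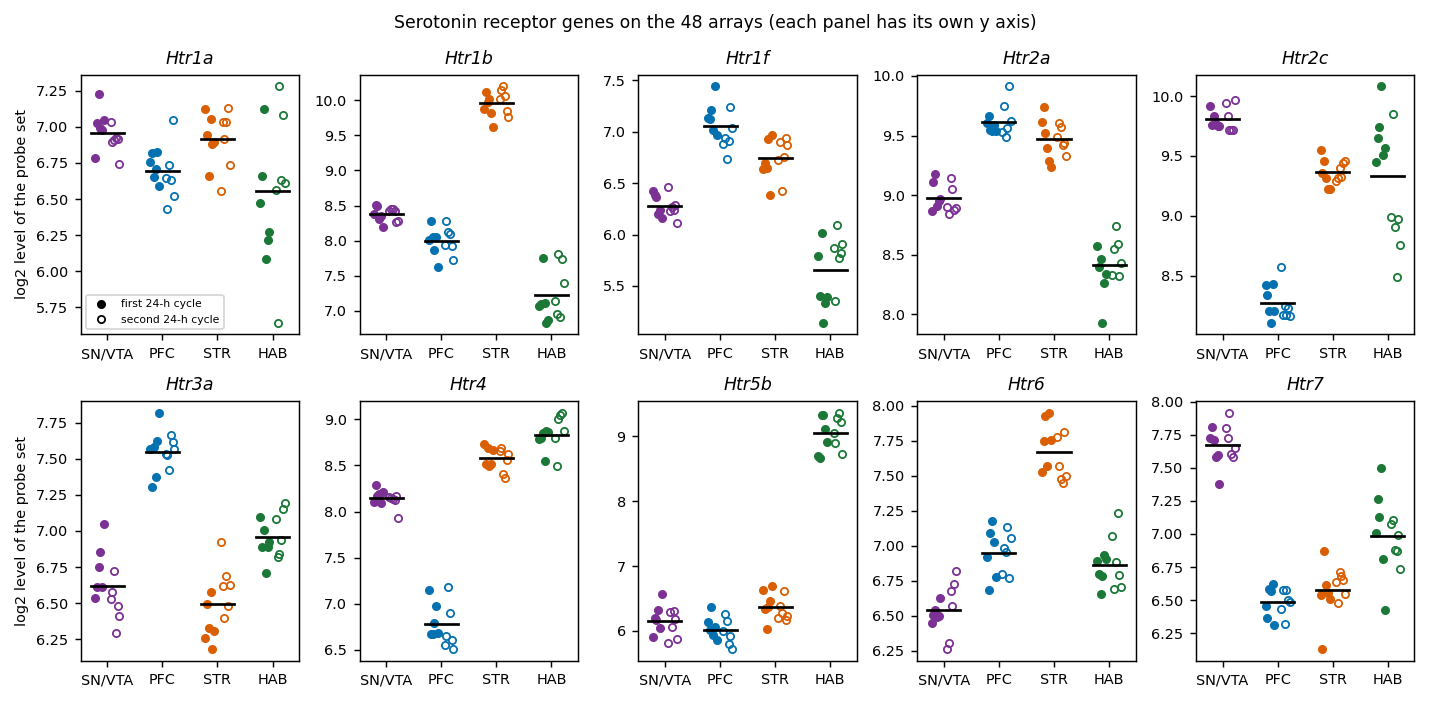
Log2 level of each receptor gene's probe set on the 48 arrays, by tissue; filled points are the first 24-h cycle, open points the second, and bars the mean of 12 arrays. Htr5b lies above 8.67 on all HAB arrays and below 6.70 on all others, and Htr2c in HAB falls into a high and a low set of arrays.

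A pair was called where limma's adjusted p (Benjamini-Hochberg over all genes tested) was under 0.05 and the log2 difference at least 1. The fit shared a single spread per gene among the tissues, so errors and p-values do not follow a tissue that varies more. For Htr2c the SE was 0.12 in every pair, although its SD was 0.493 in HAB and 0.093 to 0.14 elsewhere. By adjusted p alone 67.71% to 75.95% of all genes passed, so the size of a difference decided most calls. Between SN/VTA and PFC 3 receptors were called, all higher in SN/VTA, and 9.33% of all genes tested. Between SN/VTA and STR it was 3 receptors and 5.18% of genes, between SN/VTA and HAB 2 receptors and 3.58%, and between PFC and STR 4 receptors and 6.23%. PFC and HAB gave 5 called receptors against 5.68% of genes, and STR and HAB 4 against 3.42%. In 20 of these 21 called differences the ranges of the 12 arrays did not overlap, as in 98.16% of the called differences of all genes. The median absolute difference of the 10 receptors was between 0.452 (SN/VTA and STR) and 0.913 (PFC and HAB), and that of all genes between 0.209 and 0.292.

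**Figure D2:**
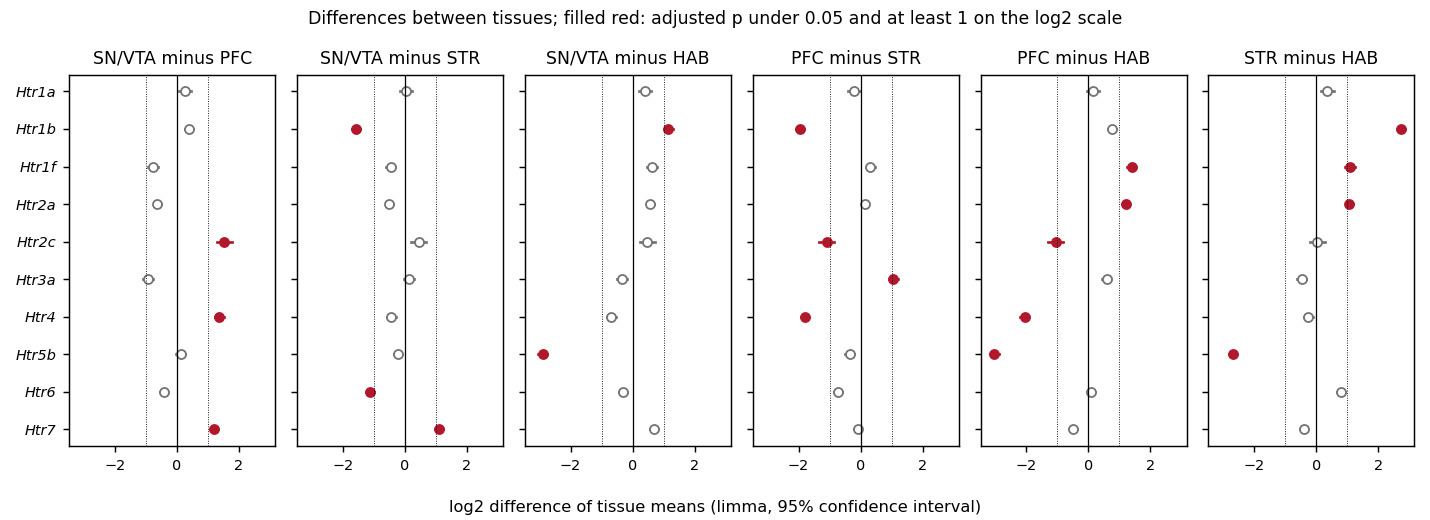
Log2 difference between tissue means for each receptor gene in the 6 tissue pairs, with 95% confidence intervals from limma; filled red points passed an adjusted p of 0.05 and a difference of 1 (dotted lines). Htr5b against HAB and Htr1b against STR lie farthest from 0, and Htr1a stays within 0.403 of 0 in every pair.

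Among the receptors coupled to inhibitory G proteins, Htr1b was the one with the widest span. It encodes a receptor found on axon endings, where it limits transmitter release. In STR its level (probe set 17529218) ran from 9.62 over a median of 9.996 to 10.20, in SN/VTA from 8.20 over 8.40 to 8.51, in PFC from 7.62 over 8.03 to 8.28, and in HAB from 6.83 over 7.10 to 7.81. Every STR array exceeded the 36 arrays from the other tissues, while PFC overlapped with both SN/VTA and HAB. STR exceeded HAB 6.63-fold (log2 difference 2.73 ± 0.07 SE, adjusted p = 2.58e-24), PFC 3.89-fold (-1.96 ± 0.07 for PFC minus STR) and SN/VTA 2.98-fold (-1.58 ± 0.07 for SN/VTA minus STR). SN/VTA exceeded HAB by 1.15 ± 0.07, which was 0.975 without the 7 HAB arrays and so under the size required. PFC exceeded HAB by 0.77 (0.592 without them).

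A further probe set is annotated with both Htr1b and D430036J16Rik. On it STR was again highest (8.89) and HAB lowest (6.16), with a difference of 2.74 (2.73 on the row of Htr1b alone, and 2.55 there without the 7 HAB arrays). SN/VTA exceeded HAB by 0.608, under the size required. The order of the middle tissues turned: PFC stood at 7.35 and SN/VTA at 6.77, a difference of -0.58 for SN/VTA minus PFC (adjusted p = 1.88e-10), where the row of Htr1b alone gave 0.38 (adjusted p = 6.995e-06). The order of Htr1b between SN/VTA and PFC therefore depends on the probe set, and that of STR above all and HAB below all does not.

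Htr1f, a further receptor of this family, was highest in PFC and lowest in HAB. Its probe set (17331431) ran from 6.74 over 7.03 to 7.44 in PFC, from 6.39 over 6.74 to 6.97 in STR, from 6.12 over 6.26 to 6.47 in SN/VTA and from 5.14 over 5.78 to 6.09 in HAB. HAB lay below every array of the other tissues, and STR overlapped with both PFC and SN/VTA. PFC exceeded HAB 2.63-fold (1.40 ± 0.08, adjusted p = 1.75e-16; 1.16 without the 7 HAB arrays), and SN/VTA exceeded HAB by 0.62 (0.388 without them). STR exceeded HAB by 1.08 ± 0.08, which fell to 0.85 without those arrays and no longer met the size required.

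Htr1a encodes the receptor by which serotonin neurons silence themselves and which hippocampal and cortical neurons carry as well. Its probe set (17289656) ran from 6.74 over 6.95 to 7.23 in SN/VTA, from 6.56 over 6.93 to 7.13 in STR, from 6.43 over 6.68 to 7.05 in PFC and from 5.64 over 6.59 to 7.28 in HAB. The tissues overlapped in all 6 pairs. SN/VTA and STR did not differ past the threshold (difference 0.04, 95% interval -0.16 to 0.24, adjusted p = 0.711). Nor did PFC and HAB (0.14, interval -0.06 to 0.35, adjusted p = 0.191), a difference of -0.136 without the 7 HAB arrays. SN/VTA exceeded HAB by 0.40 (adjusted p = 6.64e-04) and STR exceeded HAB by 0.36 (adjusted p = 0.00188), but without the 7 arrays these differences were 0.123 and 0.082. Of all genes tested, 64.2% had a wider span between tissues than Htr1a, but its SD among the 12 HAB arrays, 0.467, was above the 0.127 to 0.182 of the other tissues.

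On the HAB arrays the Htr1 genes moved with hippocampus markers, a comparison made after the data were seen. The array with the highest marker mean, ZT19 of the second cycle (9.14), also had the highest Htr1a (7.28), Htr1b (7.81) and Htr1f (6.09). The array with the lowest marker mean, ZT15 of the second cycle (8.22), had the lowest Htr1a (5.64). Across the 12 arrays Pearson's r with the marker mean was 0.93 for Htr1a (permutation p = 1.00e-05, the smallest that the 100000 permutations can give; adjusted over 30 relations 3.00e-04), with Spearman's rho at 0.90 (p = 1.50e-04, adjusted 0.0045). For Htr1f r was 0.87 (permutation p = 2.60e-04, adjusted 0.0039) and rho 0.87 (p = 5.20e-04, adjusted 0.0078). For Htr1b r was 0.76 (permutation p = 0.00509, adjusted 0.0307) and rho 0.71 (p = 0.0126, adjusted 0.0757), so that only the first measure passed.

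Without the 2 arrays farthest from the median marker mean, r was 0.88 for Htr1a, 0.83 for Htr1f and 0.67 for Htr1b. Within the first cycle it was 0.89, 0.84 and 0.65 and within the second 0.99, 0.91 and 0.78, in the same order, over 6 arrays each. The hippocampus marker mean also differed between the clusters by choroid plexus markers, at 8.51 on average on the 7 arrays and 8.90 on the other 5, with overlap. Within the 7 arrays r was 0.92 for Htr1a, 0.80 for Htr1f and 0.64 for Htr1b. For each of the 3 genes r was above 0 with 7 of 7 hippocampus markers. Htr4 had r = 0.85 (permutation p = 4.60e-04, adjusted 0.0046), but its rho of 0.74 did not pass (adjusted 0.0735). For Htr2c r was -0.71 (permutation p = 0.0104, adjusted 0.0521) and for Htr2a, Htr3a, Htr5b, Htr6 and Htr7 it lay between -0.36 and 0.53, with adjusted p of 0.231 or more. The arrays share libraries between the genes compared, and the part of hippocampal RNA in the HAB levels of these receptors was not tested.

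**Figure D3:**
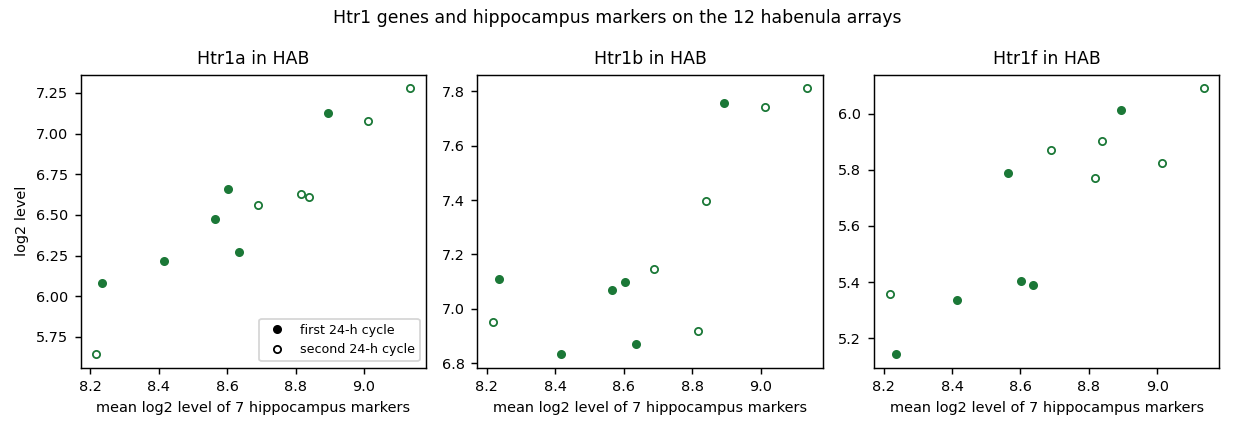
Log2 level of Htr1a, Htr1b and Htr1f on the 12 HAB arrays against the mean log2 level of 7 hippocampus markers on the same array; filled points are the first 24-h cycle and open points the second. Htr1a runs from 5.64 to 7.28 as the markers run from 8.22 to 9.14.

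Among the Htr2 genes, whose receptors activate phospholipase C, Htr2a, the receptor on which hallucinogens act, was highest in PFC and lowest in HAB. Its probe set (17301926) ran from 9.49 over 9.58 to 9.91 in PFC, from 9.24 over 9.46 to 9.74 in STR, from 8.84 over 8.93 to 9.18 in SN/VTA and from 7.93 over 8.41 to 8.74 in HAB. PFC and STR overlapped, and every other pair of tissues was separate. PFC exceeded HAB 2.30-fold (1.20 ± 0.06, adjusted p = 4.19e-18; 1.13 without the 7 HAB arrays), and SN/VTA exceeded HAB by 0.56 (0.493 without them). STR exceeded HAB by 1.06 ± 0.06, and by 0.989 without those arrays, just under the size required. PFC and STR differed by 0.14 (95% interval 0.03 to 0.26, adjusted p = 0.0208).

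Htr2c was highest in SN/VTA and lowest in PFC. Its receptor is known for restraining dopamine neurons through inhibitory neurons, and choroid plexus cells are a classic site of its RNA. The probe set (17538411) ran from 9.71 over 9.76 to 9.97 in SN/VTA, from 9.22 over 9.34 to 9.55 in STR and from 8.11 over 8.22 to 8.58 in PFC, with no overlap between these tissues. SN/VTA exceeded PFC 2.89-fold (1.53 ± 0.12, adjusted p = 9.56e-13), and STR exceeded PFC 2.13-fold (-1.09 ± 0.12 for PFC minus STR, adjusted p = 2.12e-09).

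In HAB the Htr2c level depended on the set of arrays. It lay between 9.45 and 10.08 (median 9.65) on the 7 arrays high in choroid plexus markers and between 8.48 and 8.99 (median 8.90) on the other 5, with no overlap. None of the other 9 receptors separated the sets. Over all 12 arrays HAB exceeded PFC by 1.06 ± 0.12 (-1.06 for PFC minus HAB), and without the 7 arrays by 0.547 (-0.547). Leaving out a single HAB array of the first cycle was enough to take this difference under 1 in magnitude for ZT07 (-0.988), ZT19 (-0.986) and ZT23 (-0.922). Against STR the direction turned with the cycle: STR minus HAB was -0.312 in the first cycle (adjusted p = 0.00456) and 0.378 in the second (adjusted p = 0.0193), for a difference of 0.03 over both. SN/VTA minus HAB was 0.48 over all arrays and 0.985 without the 7. The part of choroid plexus RNA in the HAB level of Htr2c was not tested.

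Within the other tissues no relation of Htr2c to these markers passed the threshold. In SN/VTA Ttr, the transthyretin gene that leads the choroid plexus list, ran from 8.49 to 11.98, while the SD of Htr2c was 0.09. There r between Htr2c and the marker mean was -0.23 over 12 arrays (permutation p = 0.466, adjusted over 40 relations 0.824; rho -0.03). In PFC r was -0.09 (permutation p = 0.771, adjusted 0.984; rho 0.18). In STR it was -0.59 (permutation p = 0.0353, adjusted 0.824; rho -0.61, adjusted 1.00), and -0.68 without the 2 arrays farthest from the median. HAB allows no pooled value because of its clusters; within the 7 arrays r was 0.48 (exact permutation p = 0.277, adjusted 0.824) and rho 0.43 (exact p = 0.354). No member passed in any of the 40 relations after adjustment.

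**Figure D4:**
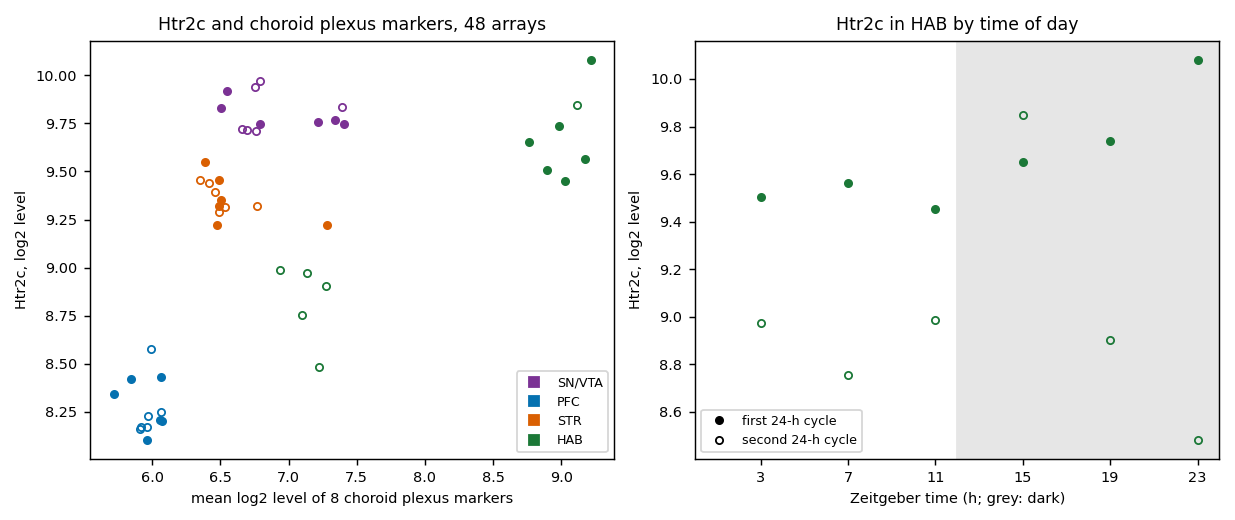
Left, Htr2c log2 level against the mean log2 level of 8 choroid plexus markers on 48 arrays, coloured by tissue; right, Htr2c in HAB by Zeitgeber time, with filled points for the first 24-h cycle and open points for the second. The 7 HAB arrays with marker means above 8.76 have Htr2c at 9.45 or more, and the other 5 at 8.99 or less.

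Htr3a, the channel subunit, marks a class of cortical interneurons. Its probe set (17526717) ran from 7.30 over 7.57 to 7.82 in PFC, above all arrays of the other tissues. It ran from 6.71 over 6.93 to 7.19 in HAB, from 6.29 over 6.59 to 7.05 in SN/VTA and from 6.18 over 6.49 to 6.92 in STR. PFC exceeded STR 2.08-fold (1.06 ± 0.08, adjusted p = 1.85e-13), HAB by 0.59 (0.508 without the 7 HAB arrays) and SN/VTA by 0.93 (-0.93 for SN/VTA minus PFC). HAB exceeded SN/VTA (-0.34 for SN/VTA minus HAB; -0.425 without the 7 arrays) and STR (-0.47 for STR minus HAB; -0.552). In the second cycle alone PFC minus STR was 0.932, under the size required. SN/VTA and STR did not differ past the threshold (0.13, 95% interval -0.03 to 0.28, adjusted p = 0.13). The mean of 8 interneuron markers was also highest in PFC (8.89 to 9.02 by array, against at most 8.68 elsewhere), but of its members only Vip, Cck and Sst were highest there, while Pvalb was highest in SN/VTA and Gad1, Reln, Lhx6 and Npy in STR.

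Of the receptors that raise cyclic AMP, Htr4 was low in PFC and high elsewhere. Its probe set (17351168) ran from 6.51 over 6.68 to 7.18 in PFC, from 7.94 over 8.15 to 8.29 in SN/VTA, from 8.36 over 8.59 to 8.73 in STR and from 8.49 over 8.86 to 9.07 in HAB. Only STR and HAB overlapped. HAB exceeded PFC 4.15-fold (-2.05 ± 0.07 for PFC minus HAB, adjusted p = 1.57e-21; -2.18 without the 7 arrays). HAB also exceeded SN/VTA (-0.69 for SN/VTA minus HAB; -0.813 without them) and STR (-0.26 for STR minus HAB; -0.381). STR exceeded PFC 3.48-fold (-1.80 ± 0.07 for PFC minus STR) and SN/VTA exceeded it 2.58-fold (1.37 ± 0.07).

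Htr6, a receptor known for its abundance in striatal neurons, was highest in STR. Its probe set (17431853) ran from 7.45 over 7.66 to 7.95 there, from 6.68 over 6.97 to 7.18 in PFC, from 6.65 over 6.84 to 7.24 in HAB and from 6.26 over 6.52 to 6.82 in SN/VTA. All STR arrays lay above those of the other tissues. STR exceeded SN/VTA 2.19-fold (-1.13 ± 0.06 for SN/VTA minus STR, adjusted p = 5.21e-16), which became -0.947 when each array was centred on its median. PFC and HAB did not differ past the threshold (0.09, 95% interval -0.04 to 0.21, adjusted p = 0.226; 0.01 without the 7 HAB arrays). STR exceeded HAB by 0.81 (0.735 without them), and SN/VTA minus HAB was -0.32 (-0.398).

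Htr7, a receptor that has been tied to circadian timing and sleep, was highest in SN/VTA. Its probe set (17364169) ran from 7.38 over 7.68 to 7.92 in SN/VTA, from 6.43 over 7.001 to 7.50 in HAB, from 6.13 over 6.58 to 6.87 in STR and from 6.31 over 6.50 to 6.62 in PFC. SN/VTA overlapped only with HAB, which it exceeded by 0.69 (0.761 without the 7 HAB arrays). HAB exceeded PFC (-0.50 for PFC minus HAB; -0.429 without them) and STR (-0.41 for STR minus HAB; -0.336). SN/VTA exceeded PFC 2.28-fold (1.19 ± 0.06, adjusted p = 2.11e-17) and STR 2.14-fold (1.10 ± 0.06, adjusted p = 3.12e-16). PFC and STR did not differ past the threshold (-0.09, 95% interval -0.22 to 0.03, adjusted p = 0.156). Across the 12 HAB arrays Htr7 correlated with 8 thalamus markers (r = 0.73, permutation p = 0.00512, adjusted over 30 relations 0.0307; rho 0.65, adjusted 0.111; r = 0.57 without the 2 farthest arrays). The thalamus list ran from 8.19 to 9.68 on these arrays and from 8.76 to 9.44 in SN/VTA. Its part in the HAB and SN/VTA levels of Htr7 was not tested.

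Htr5b had the widest span of all 10 receptors. Its coupling is less well known than that of the others, and the habenula is a known site of its RNA in rodents. In HAB its probe set (17226364) ran from 8.68 over 9.08 to 9.37. It ran from 6.03 over 6.36 to 6.70 in STR, from 5.81 over 6.18 to 6.57 in SN/VTA and from 5.72 over 6.01 to 6.37 in PFC. Every HAB array lay at least 1.98 above any array of another tissue. HAB exceeded PFC 8.18-fold (-3.03 ± 0.07 for PFC minus HAB, adjusted p = 4.29e-25), SN/VTA 7.50-fold (-2.91 ± 0.07 for SN/VTA minus HAB) and STR 6.44-fold (-2.69 ± 0.07 for STR minus HAB). Without the 7 HAB arrays these differences were -3.11, -2.99 and -2.77. SN/VTA and PFC did not differ past the threshold (0.12, 95% interval -0.02 to 0.27, adjusted p = 0.108).

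Scaling turned the direction of few of these differences, but it moved their sizes. Centring, for example, took Htr6 for SN/VTA minus STR from -1.13 to -0.947. Centring each array on its median or quantile normalization left the direction of 59 of the 60 differences as it was; the exception was Htr2c between STR and HAB, at 0.03 as deposited and -0.01 after centring.

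For each receptor the genes with the most similar pattern over the 48 arrays were taken by Pearson's r. These values describe mainly the differences between the 4 tissues, which all genes share, and are no test. Htr5b was closest to Tac2 (r = 0.983), which encodes neurokinin B, to Chrnb4 (0.979), a nicotinic receptor subunit of the habenula, and to Lct (0.976). Tac2 and Chrnb4 were on the list of habenula markers and Lct on that of hippocampus markers. Htr1b was closest to the retinoid receptor gene Rxrg (0.966), to Penk (0.963), which encodes the enkephalin precursor of striatal neurons, and to the potassium channel gene Kcnt1 (0.959).

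Htr4 was closest to Med25 (0.971), Lin7c (0.962) and Zfp706 (0.954), and Htr2a to Gsg1l (0.951), Sesn3 (0.948) and Tyro3 (0.941). Gsg1l, an auxiliary protein of AMPA receptors, was also among the closest to Htr1f (0.927), behind Slc35f1 and Atp2b4 (0.932 each). Htr1f and Htr2a themselves correlated with r = 0.923, the highest value between members. Htr2c was closest to Acaa2 (0.947), Zfp521 (0.929) and Vat1 (0.924), and Htr7 to Clstn3 (0.945), Cd83 (0.942) and the glycine receptor gene Glra1 (0.940). Htr3a was closest to Capzb (0.938), Opcml (0.921) and Ly6e (0.918), and Htr6 to Cacna2d3 (0.921), Mpped2 (0.918) and Actn2 (0.912). Htr1a had the lowest likeness of all, at 0.707 with Zdhhc2, 0.645 with Cntnap5a and 0.643 with N4bp2l1.

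The second comparison asked whether the receptors vary over the day. A 24-h cosine curve was fitted in each tissue (12 arrays), over the 48 arrays with tissue as a term, and as a difference between tissues. Amplitudes run from the mean to the peak on the log2 scale, and a call needed an adjusted p under 0.05 in limma. Within single tissues 0 of 10 receptors were called, where 0.162% of all genes were called in SN/VTA, 0.179% in PFC, 0.0174% in STR and 0.0174% in HAB. At an unadjusted p under 0.05 it was 3 receptors in SN/VTA, 2 in PFC, 2 in STR and 1 in HAB, where 9.87%, 11.58%, 8.493% and 6.304% of all genes passed. In the fit over the 48 arrays 1 receptor, Htr1b, and 5.55% of all genes were called. For the difference between tissues 0 receptors were called and 0.0289% of genes, with 1 receptor, Htr5b, and 6.64% of all genes at an unadjusted p under 0.05.

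In the shared fit the curve of Htr1b was higher in the dark. Its amplitude was 0.166 ± 0.039 SE, 1.26-fold from trough to peak, with a peak at ZT18.1 and an adjusted p of 0.0157. On the side of their tissue's mean that the curve gave lay 35 of 48 arrays. These are the arrays the curve was fitted to, so the count is no test. In STR the pairs of arrays (first, second cycle) stood at 9.81 and 9.85 at ZT3, 9.62 and 9.76 at ZT7, 9.88 and 10.01 at ZT11, 10.12 and 10.15 at ZT15, 9.98 and 10.20 at ZT19, and 10.02 and 10.06 at ZT23. Both ZT7 arrays were the lowest of STR and 5 of the 6 dark arrays lay above every light array. For 1 of these 5, ZT23 of the first cycle (10.015), this was nearly a tie with ZT11 of the second (10.014). In PFC the lowest pair was again ZT7 (7.62 and 7.73), and both ZT15 arrays stood at 8.28, the highest. In SN/VTA the ZT7 mean was 8.24 and the ZT15 mean 8.49.

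By tissue the amplitude was 0.119 ± 0.026 in SN/VTA (peak ZT16.9, adjusted p = 0.188), 0.206 ± 0.055 in PFC (ZT17.5, adjusted p = 0.259) and 0.208 ± 0.043 in STR (ZT17.8, adjusted p = 0.317). HAB differed: of its dark times only ZT19 was high (7.76 and 7.81). The means at ZT15 (7.03) and ZT23 (7.01) lay below those of ZT11 (7.11), ZT7 (7.13) and ZT3 (7.29). Its ZT3 arrays stood at 6.83 and 7.74, and the amplitude was 0.165 ± 0.132 (adjusted p = 0.923). The ZT19 arrays also had the highest hippocampus marker mean of their cycle in HAB (8.89 and 9.14), and the part of these markers was not tested. Without HAB the shared fit gave 0.177 and an adjusted p of 4.73e-05. The rhythms of Htr1b did not differ past the threshold between tissues (adjusted p = 0.995).

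This call rested on treating the 48 arrays as separate samples, and whether the 4 tissues of a time came from the same mice is not given in the labels. With the 4 tissues averaged into 12 values, the amplitude was 0.166 and the adjusted p 0.0838. It was 0.0528 with time as a factor, 0.0919 without SN/VTA, 0.178 without PFC and 0.177 without STR. The first cycle alone gave an amplitude of 0.216 (adjusted p = 0.0353) and the second 0.12 (adjusted p = 0.554).

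**Figure D5:**
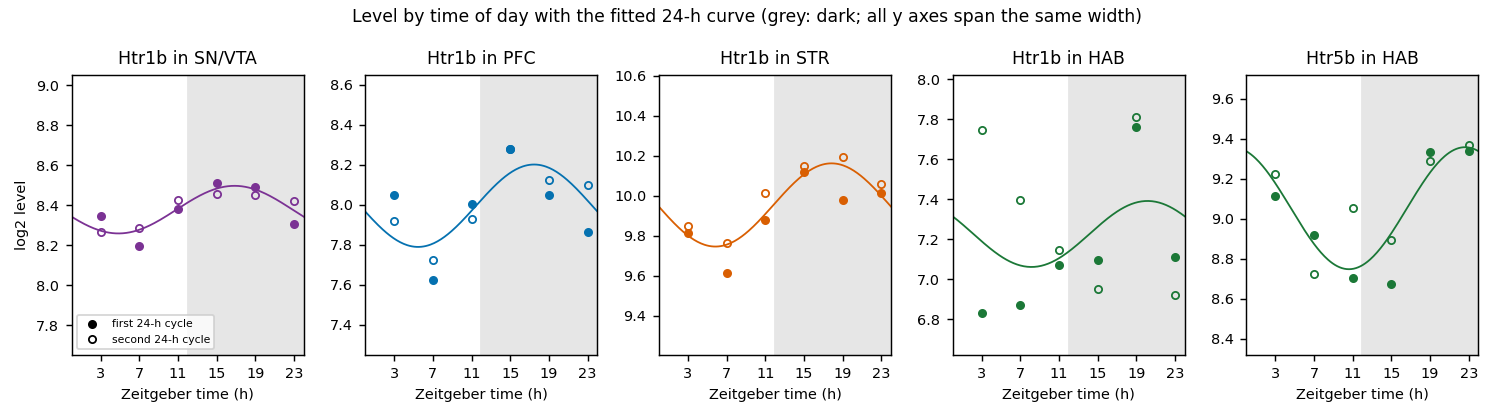
Log2 level of Htr1b in each tissue and of Htr5b in HAB by Zeitgeber time, with the fitted 24-h curve; filled points are the first 24-h cycle, open points the second, grey marks darkness, and all y axes span the same width. Htr1b peaks between ZT16.9 and ZT17.8 in SN/VTA, PFC and STR, and Htr5b in HAB at ZT22.6.

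Since Htr1b was the one member called over the day, its promoter is shown, taken from RefSeq's table for GRCm38.p6; 7 of the 10 members had an entry there. The 250 bases before the annotated start lie on the minus strand at chr9:81633833-81634082.

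Htr1b: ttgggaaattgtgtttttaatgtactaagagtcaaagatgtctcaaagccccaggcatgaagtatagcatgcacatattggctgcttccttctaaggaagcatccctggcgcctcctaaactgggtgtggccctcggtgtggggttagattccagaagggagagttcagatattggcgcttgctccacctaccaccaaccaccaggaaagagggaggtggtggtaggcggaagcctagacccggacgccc

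Motifs of clock and cyclic AMP factors were searched on both strands and would stand in capitals; none was in this window, which says only that these letters do not occur there. The E-box CACGTG was in 6.02% of all 32851 windows of this length, the related CACGTT in 3.85%, the D-box TTATGTAA in 0.819% and the cyclic AMP element TGACGTCA in 1.55%. Of the 8 windows of the 7 members, that of Htr1a held 1 match to CACGTT, and no other match was found.

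Htr5b in HAB had the largest amplitude of any receptor in a single tissue, 0.305 ± 0.058, 1.53-fold from trough to peak at ZT22.6, with an unadjusted p of 6.95e-04 and an adjusted p of 0.438. Its arrays stood at 9.34 and 9.37 at ZT23, at 9.33 and 9.29 at ZT19 and at 9.11 and 9.22 at ZT3, against 8.92 and 8.72 at ZT7, 8.71 and 9.06 at ZT11 and 8.68 and 8.89 at ZT15. The ZT19, ZT23 and ZT3 arrays all lay above those of ZT7, ZT11 and ZT15. Across the 12 HAB arrays Htr5b had r = 0.65 with the mean of 8 habenula markers (permutation p = 0.0246, adjusted over 30 relations 0.0922; rho 0.73, adjusted 0.0739; r = 0.46 without the 2 farthest arrays), with 0.80 in the first cycle and 0.45 in the second. The part of these markers in the daily values of Htr5b was not tested. In limma the difference of its rhythm between tissues had an unadjusted p of 0.0109 and an adjusted p of 0.565.

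Among the other receptors none passed the threshold. The largest amplitude in a single tissue among them was that of Htr7 in HAB, 0.214 ± 0.088 (peak ZT18.3, adjusted p = 0.8125). Htr2a in STR had an amplitude of 0.176 ± 0.042 with its peak at ZT15.8 (adjusted p = 0.365). All 12 arrays, to which the curve was fitted, lay on the side of the mean that it gave. The same held for 12 of 12 arrays of Htr7 in SN/VTA (0.143 ± 0.040, ZT16.0, adjusted p = 0.34). The SN/VTA array with the lowest Htr7, ZT7 of the first cycle (7.38), also had the lowest thalamus marker mean there (8.76). The array with the highest Htr7, ZT19 of the second cycle (7.92), had a marker mean of 9.20, below the largest of 9.44. The part of these markers in the daily values of Htr7 was not tested. Over the 48 arrays Htr2a had 0.086 ± 0.028 (adjusted p = 0.139) and Htr7 0.096 ± 0.035 (adjusted p = 0.189). Htr2c in HAB had a fitted amplitude of 0.198 ± 0.181 (adjusted p = 0.938) on arrays that differed by cycle in choroid plexus markers. Over all genes tested the median shared amplitude was 0.042 and over the 10 receptors 0.082. On the same arrays 11 of 13 core clock genes were called in the shared fit, with Ciart at 0.639 and Dbp at 0.498.

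Of the other serotonin receptor genes, 4 were tested. Htr1d, a receptor of the inhibitory family, was higher in STR (7.42 ± 0.18, SD, n = 12) than in PFC (6.25 ± 0.12) by 1.17 (-1.17 for PFC minus STR, adjusted p = 2.42e-14) and than in HAB (6.32 ± 0.23) by 1.10. Htr5a, the closest relative of Htr5b, was highest in PFC (8.39 ± 0.12) and lowest in STR (7.50 ± 0.13), a difference of 0.89 that was under the size required. Htr2b and Htr3b, the partner subunit of Htr3a, differed by at most 0.37 in any pair. None of the 4 was called over the day.

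Genes of serotonin synthesis, transport and breakdown were tested for 12 of 14. Those called were higher in SN/VTA than in PFC for 4 of 12, with 0 lower, and higher than in STR and in HAB for 2 of 12 each, with 0 lower. Slc18a2, which loads monoamines into vesicles, led at 10.14 in SN/VTA and 5.49 in PFC (4.65 ± 0.07), before Ddc, the decarboxylase of serotonin and dopamine synthesis (2.73 ± 0.05), and Qdpr, which recycles the cofactor of the hydroxylases (1.54 ± 0.05). Dopamine neurons use these genes as well. Slc29a4, a low-affinity monoamine transporter, was higher in HAB (8.91) than in PFC (7.26), at -1.65 ± 0.05 for PFC minus HAB, and was the 1 gene of the 12 called over the day (shared amplitude 0.095, peak ZT5.43, adjusted p = 0.0399). Tph2, the enzyme that defines serotonin neurons, stood at 5.42 ± 0.58 in SN/VTA (SD, n = 12; 4.83 to 6.79) and at 5.03 to 5.21 on average elsewhere, and Slc6a4, the serotonin transporter, was below the filter on low values.

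Of 21 G protein and effector genes, 6 were higher in PFC than in STR and 2 lower, and 2 were higher in STR than in HAB and 5 lower. The other pairs had between 1 and 5 called. Adcy1 (-2.56 ± 0.06 for STR minus HAB) and the potassium channel gene Kcnj6 (-2.02 ± 0.07), whose channel the Htr1 receptors open, were higher in HAB, and Adcy5, the main striatal adenylyl cyclase, was higher in STR (1.94 ± 0.05). Adcy8 was higher in SN/VTA than in STR (1.72 ± 0.06). None of the 21 was called over the day.

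Among 13 accessory and regulatory genes, 4 were called between SN/VTA and PFC, 2 in each direction, and at most 3 were called in any other pair. Adarb1, an enzyme that edits Htr2c RNA, was 1.35 ± 0.09 higher in SN/VTA (11.05) than in PFC (9.69), the pair in which Htr2c also differed most. Rgs2, a brake on G protein signalling, was higher in STR than in PFC (-1.79 ± 0.04 for PFC minus STR), and Rgs4, another, was higher in PFC than in HAB (1.59 ± 0.09). Cnr1, the cannabinoid receptor, was lower in SN/VTA than in PFC (-1.27 ± 0.05). Over the day Rgs2 (0.076, peak ZT17.6, adjusted p = 0.0279) and Mpdz (0.122, peak ZT22.3, adjusted p = 2.41e-04), a scaffold protein that binds Htr2 receptors, were called in the shared fit.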

How the data were processed

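Levels were the deposited values of 48 Affymetrix Mouse Gene 2.0 ST arrays, 1 per tissue, time and cycle. Per the labels, total RNA of 3 mice was pooled and made into biotin-labelled cDNA. The values deposited by the authors were taken as log2 levels, from their range and array medians of 5.84 to 6.07; how they were background-corrected, summarised and normalized is not given in the sources used. Genes were named from the platform annotation, and rows with several symbols were left out. Genes with a mean below 5.05, the 30th percentile of rows, were not tested, which left 17274. The number of arrays limits the precision.

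Tests were run with limma 3.58.1 in R 4.3.3: tissue pairs in a 24-group model, 1 group per tissue and time (24 residual degrees of freedom) and 24-h cosine curves. Benjamini-Hochberg adjustment ran over all genes tested, except for permutation tests of correlations (100000 resamples; exact for 7 arrays), which were two-sided and adjusted over 40 relations, or over 30 for the comparisons added later. The scripts were tested on simulated data. Figures used Python 3.11.15 and matplotlib 3.10.9.

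The members, gene lists and tests were chosen with earlier results of these data known. Named were the 10 members and, for each, the 3 genes with the highest Pearson r, predicted genes passed over. Of each other list at most 4 genes with the largest difference in any pair were named. Beside that rule were named Tph2, Slc6a4, Mpdz, Ttr, Kcne2, Slc4a5, Nr4a2, Cux2, Wfs1, the interneuron markers and, of the clock genes, Ciart and Dbp. Alternatives were other scalings, filters, row choices, eBayes settings, the replicate number as a block, each array, cycle or tissue left out, and the 7 HAB arrays left out.

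Replicate numbers mark the 24-h cycle, per the labels. Deviations from the group means of arrays with the same time and number in different tissues correlated with a mean r of 0.036 (36 pairs, -0.121 to 0.251, 4 of them over 0.1).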

Additional observations from a re-analysis of the deposited data

How the results depend on the processing

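Counts of receptors called between tissues stayed within 1.5 times the reported count under other scalings, filters, row choices, eBayes settings and the replicate block. The replicate block changed no call, but centring each array took Htr6 between SN/VTA and STR under the size required (-0.947). Without the 2-fold requirement the counts were 9 (SN/VTA and PFC), 8 (SN/VTA and STR), 10 (SN/VTA and HAB), 9 (PFC and STR), 8 (PFC and HAB) and 9 (STR and HAB). Without the 7 HAB arrays, chosen after seeing the data, some differences fell under the size required. They were Htr1b for SN/VTA minus HAB (0.975), Htr2c for PFC minus HAB (-0.547), and Htr1f (0.849) and Htr2a (0.989) for STR minus HAB. Leaving out 1 array, or 1 whole cycle, gave 3 to 4, 3 to 3, 2 to 2, 3 to 4, 4 to 5 and 2 to 4 in the same order of pairs; the lowest value for STR and HAB came from the second cycle alone. In the shared rhythm the count was 0 to 2 when an array or cycle was left out: 2 without replicate 2 of ZT3 in PFC, where Htr2a joined Htr1b (adjusted p = 0.0345), and 0 in the second cycle alone. It was 0 with tissue means, with time as a factor, and without SN/VTA, PFC or STR, and 1 with the replicate block (adjusted p = 0.0135 for Htr1b). In STR 1 receptor, Htr1b, was called with trend and robust eBayes (adjusted p = 0.0152). Of 792 alternatives for single called receptors, 774 kept the call, 18 lost it and 0 reversed. Most of the 792 left out a single array, which changes little. Time as a factor gives no amplitude and was not counted among them, although Htr1b lost its shared call there. With Ttr alone, r with Htr2c was -0.21 in SN/VTA, -0.11 in PFC, -0.49 in STR and 0.47 in 7 HAB arrays, none past the threshold. The cause of these changes was not tested.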
